A study of Homo sapiens with 8 samples.

Results

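The MYC and MAX network genes were examined for peaks of HoxC5 and Pbx4 in chromatin immunoprecipitation followed by sequencing (ChIP-Seq) of PC-3 cells, an established human prostate cancer cell line. The 10 genes, MYC, MYCN, MYCL, MAX, MXD1, MXD3, MXD4, MXI1, MNT and MGA, were taken by name from 20163 protein-coding genes, with no use of the measured values. A peak was counted to a gene when its summit, the base of highest enrichment, lay in the gene body or within 50 kb of an annotated transcription start site (TSS). For MYC, peaks were also followed up to 1 Mb to either side. Endogenous HoxC5 was pulled down from PC-3 cells of the control genotype with a HoxC5 antibody in 2 libraries (replicates 1 and 2). The same antibody was used in 1 library of cells with Hoxc5 overexpression, and a PBX4 antibody in 1 library of cells with Pbx4 overexpression. The overexpressed proteins were delivered by lentivirus and carried a Flag tag, and neither the level of expression nor the number of cultures per library is given in the sources used here. Peak lists carry no transcript levels, so the identity of the cells could not be checked against marker genes.

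Replicates 1 and 2 of endogenous HoxC5 held 2525 and 170 peaks, against 67172 for overexpressed HoxC5 and 153557 for overexpressed Pbx4 on the assembled chromosomes. The lists differ this much in length, and each overexpressed condition is 1 library. Each gene was therefore read against all protein-coding genes of the same list, fold enrichments were compared only within a list, and no difference between conditions was tested.

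MYC, MYCN and MYCL are basic helix-loop-helix leucine zipper transcription factors that bind DNA as dimers with MAX, most strongly at the E-box CACGTG. MXD1, MXD3, MXD4, MXI1 and MNT also pair with MAX and recruit SIN3 corepressors, so that they counter MYC at shared sites, and MGA is a large MAX partner with a T-box domain that is found in a Polycomb complex. HoxC5 is a homeodomain protein, and Pbx proteins are its TALE-class partners, which bind with Hox proteins at composite sites such as TGATTGAT and TGATTAAT.

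The sequences below show the places that the results return to, 101 bases around each summit, all on the plus strand of GRCh37 (hg19). Capitals mark words that were searched on both strands: the AP-1 word TGACTCA (the binding sequence of Jun and Fos dimers, read as TGAGTCA on the other strand), the composite Hox-Pbx words TGATTGAT and TGATTAAT, and the Hox word TAATGA. The first pair hold composite Hox-Pbx words on the minus strand, downstream of MYCL and in an intron of SGSM2 within the MNT window, where TGACTCA and TAATGA also overlap by 3 bases. The next pair hold the AP-1 word, in an intron of MXD1 and at the end of a coding exon of MGA. The last 3 hold none of these words and are shown because endogenous HoxC5 had a peak there (the MAX promoter and MAPKBP1, in the MGA window) or because the site had the smallest q-value rank of the Pbx4 peaks at these genes (upstream of MAX). The places were chosen after their values were seen.

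MYCL downstream, chr1:40358449-40358549: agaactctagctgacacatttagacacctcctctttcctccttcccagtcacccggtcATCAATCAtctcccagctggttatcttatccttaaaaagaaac
SGSM2 intron, chr17:2263002-2263102: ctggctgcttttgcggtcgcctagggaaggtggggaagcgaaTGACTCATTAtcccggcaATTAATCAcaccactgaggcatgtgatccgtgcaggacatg
MXD1 intron, chr2:70145138-70145238: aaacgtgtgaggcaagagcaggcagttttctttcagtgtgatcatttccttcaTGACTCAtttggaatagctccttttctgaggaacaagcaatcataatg
MGA exon and intron, chr15:41991094-41991194: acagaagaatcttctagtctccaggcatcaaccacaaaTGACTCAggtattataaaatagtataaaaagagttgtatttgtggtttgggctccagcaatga
MAX promoter, chr14:65569580-65569680: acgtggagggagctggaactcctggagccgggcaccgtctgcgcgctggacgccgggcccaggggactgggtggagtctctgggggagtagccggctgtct
MAX upstream, chr14:65598240-65598340: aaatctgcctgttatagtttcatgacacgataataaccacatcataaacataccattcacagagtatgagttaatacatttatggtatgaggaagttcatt
MAPKBP1 intron, chr15:42083406-42083506: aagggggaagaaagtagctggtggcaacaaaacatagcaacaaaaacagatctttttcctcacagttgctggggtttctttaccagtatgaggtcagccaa

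Endogenous HoxC5 had a peak at MYC, MAX and MGA in replicate 1 and at none of the 10 genes in replicate 2. Among all protein-coding genes, 17.1% had a replicate 1 peak by the same rule and 1.47% a replicate 2 peak. MAX was the only member with an endogenous summit within 1 kb of a TSS, where 3.38% of all genes had a replicate 1 summit and 0.208% a replicate 2 summit. Overexpressed HoxC5 had peaks at 9 of the 10 genes, all but MYCN, against 87.8% of all genes, and overexpressed Pbx4 at all 10, against 93.0%. Overexpressed HoxC5 summits lay within 1 kb of a TSS at the same 9 genes (54.9% of all genes), and Pbx4 summits at 7 (41.9% of all genes), the exceptions being MYCN, MYCL and MGA. The presence of an overexpressed peak somewhere in the window was thus close to the background of all genes. At a fold of at least 5, HoxC5 promoter peaks were at 8 members and Pbx4 promoter peaks at 2. The shares of all genes at that fold were not computed. These counts therefore have no background and cannot be set against the 54.9% and 41.9%. The median member had 8.5 annotated TSSs and a promoter area (the bases within 1 kb of a TSS) of 5.26 kb, against 5 and 4.58 kb over all genes.

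The number of peaks per gene ranged from 0 at MYCN to 21 at MGA for overexpressed HoxC5, and from 1 at MYCN to 22 at MGA for overexpressed Pbx4. Together the 10 windows held 82 overexpressed HoxC5 peaks and 106 Pbx4 peaks, and 51 and 58 of these had a member's TSS as their nearest protein-coding TSS. The rest lay nearer to a neighbour, such as TRIT1 beside MYCL, LMAN2 beside MXD3, POLN beside MXD4, SGSM2 beside MNT and MAPKBP1 beside MGA. Per 100 kb of window, the median member had 4.95 overexpressed HoxC5 peaks, against a median of 3.14 (quartiles 1.40 and 5.62) over all genes. For Pbx4 the median member had 8.60 peaks per 100 kb, against 5.97 (quartiles 2.99 and 9.37). The windows themselves were of ordinary length, with a median of 110 kb against 112 kb for all genes.

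MYC had the highest density in both lists, with 11.6 overexpressed HoxC5 and 12.5 Pbx4 peaks per 100 kb. MXD3 (11.5), MNT (10.6) and MGA (8.67) followed for HoxC5, all above the upper quartile of all genes, while MAX (2.05) and MXD4 (2.81) lay below the median. For Pbx4, MXD1 (10.7) and MYCL (9.97) were next after MYC and also above the upper quartile, and MYCN (0.971) was below the lower quartile. These densities count every peak of a window. The member's TSS was the nearest for all 12 HoxC5 and 13 Pbx4 peaks of MYC. It was the nearest for 3 of 12 HoxC5 peaks of MXD3, 9 of 12 of MNT and 10 of 21 of MGA. For Pbx4 it was the nearest for 11 of 15 peaks of MXD1 and 2 of 10 of MYCL. MXD3 and MNT were the only members with more overexpressed HoxC5 than Pbx4 peaks, 12 against 9 and 12 against 7, although the Pbx4 list is the longer of the pair.

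**Figure D1:**
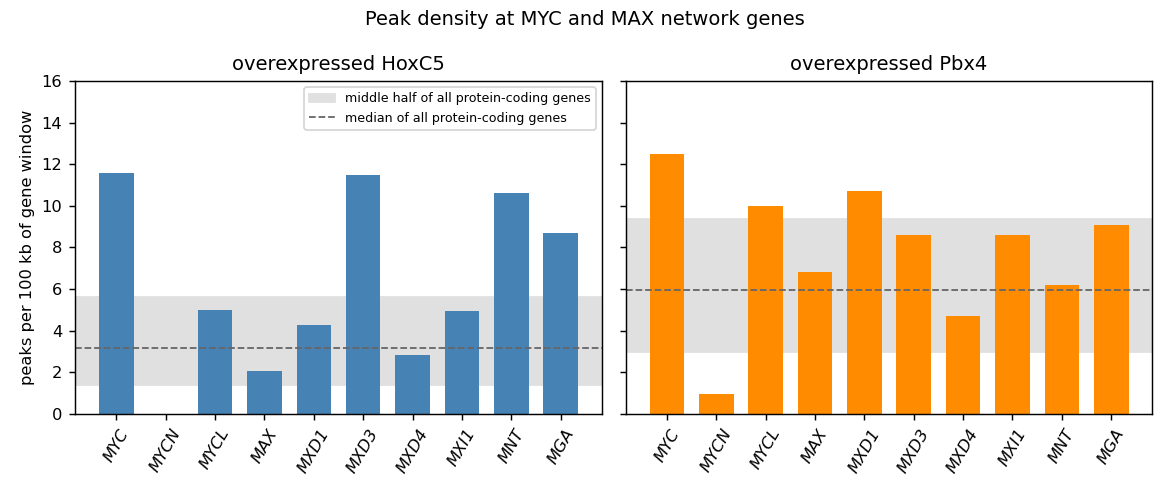
Peaks per 100 kb of gene window for overexpressed HoxC5 (left) and overexpressed Pbx4 (right) at the 10 genes, with bars from 0. The dashed line is the median over all protein-coding genes (3.14 and 5.97) and the grey band runs from the lower to the upper quartile; MYC stands above the band on both sides and MYCN below it.

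The median fold of the overexpressed peaks at these genes was near that of their lists. The 3 endogenous replicate 1 peaks had folds of 3.58 to 4.35, below the median of 4.98 for that list. The fold enrichment of overexpressed HoxC5 peaks at members ran from 2.73 to 16.8 with a median of 5.88, and the median of the whole list was 6.17. For Pbx4 it ran from 2.34 to 14.8 with a median of 5.85, against 6.36 for the list. Ranked by q-value, 1 of the 82 overexpressed HoxC5 peaks and 8 of the 106 Pbx4 peaks were in the top 10% of their lists. With the overexpressed HoxC5 list limited to its 2525 best peaks by q-value, as many as replicate 1 had, no peak lay at a member, where 12.0% of all genes had such a peak. With the Pbx4 list limited in the same way, 1 member had a peak, MAX, where 10.3% of all genes did. The highest fold at each gene had a median of 9.72 over the 9 members with an overexpressed HoxC5 peak (9.15 over all genes with a peak) and 12.0 over the members for Pbx4 (12.2 over all genes).

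At MYC (chr8:128747680-128755197), the endogenous replicate 1 peak lay in the 3′ UTR at chr8:128754605-128754855, with a fold enrichment of 3.77 and a −log10 q of 2.81, which is 81.6% of the way down that list. Both overexpressed lists had a peak that overlapped it, with a fold of 7.40 for HoxC5 (chr8:128754739-128754940) and 9.13 for Pbx4 (chr8:128753958-128756108). The HoxC5 peak was the strongest of the 12 overexpressed HoxC5 peaks at MYC, whose folds began at 2.73. At the MYC promoter the lists were unlike each other in number. Overexpressed HoxC5 had 6 summits within 1 kb of an annotated MYC TSS, in intervals between 128746968 and 128752147, and the widest of them, chr8:128746968-128748777, had a fold of 5.85 and its summit 6 bp upstream of a coding TSS. The other 5 had folds of 4.54, 5.35, 4.00, 5.81 and 5.62. Those with folds of 4.00, 5.81 and 5.62 lay 1.20, 1.61 and 2.08 kb past the nearest coding TSS. Pbx4 had 2 summits within 1 kb of an annotated MYC TSS, with folds of 2.99, 107 bp upstream of a TSS, and 6.77. The latter was 2.07 kb past the nearest coding TSS, in an exon that also held a HoxC5 peak and the word TAATGA. MYC has 14 annotated TSSs, against a median of 5 over all genes, but their promoter area of 5.64 kb was near the median of 4.58 kb. The highest Pbx4 fold at MYC was 11.3, at 8.76 kb upstream in an intron of the non-coding gene CASC11, where overexpressed HoxC5 had a fold of 5.80.

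MYCN, the paralogue best known from neuroblastoma, had the fewest peaks of the network. Its only peak was a Pbx4 peak 28.0 kb upstream (chr2:16052523-16052781) with a fold of 3.27, at 98.8% of the way down the list by q-value, and with the AP-1 word near its summit. MYCL, the paralogue first found in lung cancer, had no peak inside its gene body in any list, and its 5 overexpressed HoxC5 and 10 Pbx4 peaks all lay around it. The strongest overexpressed HoxC5 peak of all 10 genes lay 9.09 kb downstream of the MYCL TSS at chr1:40358381-40358616, with a fold of 16.8 and a −log10 q of 41.0, at 4.07% of the way down the list. The composite word TGATTGAT printed above was at chr1:40358507-40358514, and Pbx4 had a peak over the same site with a fold of 7.02. A weaker peak of each list lay 8.52 kb from the TSS, with folds of 5.97 and 4.04 and the AP-1 word near both summits. The overexpressed HoxC5 peak at the MYCL promoter, 167 bp upstream, had a fold of 4.77. The strongest Pbx4 peak in the window, with a fold of 14.1, was 49.3 kb away in an exon of TRIT1 and had no HoxC5 partner.

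MAX (chr14:65472892-65569413), the common partner, was marked at its promoter in 3 of the 4 lists. Endogenous replicate 1 had a peak at chr14:65569514-65569747, with its summit 217 bp upstream of the TSS, a fold of 4.35 and a −log10 q of 6.02, 36.8% of the way down the list. Overexpressed HoxC5 had a peak over it with a fold of 5.87 and Pbx4 one with a fold of 3.79. A second pair of peaks lay in the 5′ UTR, 56 and 67 bp upstream of the nearest coding TSS, with folds of 3.61 and 4.71, and the E-box CACGTG was within 50 bp of both summits. The largest MAX peak was intergenic, 28.9 kb upstream (chr14:65598119-65598456), with a Pbx4 fold of 12.8 and a −log10 q of 56.1, at 1.36% of the way down the list, and there overexpressed HoxC5 had a fold of 5.96. All 3 overexpressed HoxC5 peaks of MAX had a Pbx4 partner, as did 67.7% of the whole HoxC5 list. Of its 10 Pbx4 peaks, 3 had a HoxC5 partner, near the 28.5% of the whole Pbx4 list.

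The MXD genes, which encode repressors that compete with MYC for MAX, differed in how their peaks were spread. MXD1 had 5 of its 6 overexpressed HoxC5 peaks in its annotated gene body, which starts at chr2:70124820. The strongest had a fold of 10.3 at 497 bp upstream of a coding TSS farther into that body (chr2:70141587-70142257). Another had a fold of 7.40 at 907 bp upstream of the same TSS. Pbx4 had 15 peaks in the MXD1 window, the strongest with a fold of 11.9 in an intron (chr2:70161086-70161861). The Pbx4 promoter summit, 77 bp upstream of that coding TSS, had a fold of 3.28. The MXD1 intron site printed above was 2.95 kb past a coding TSS and held a peak of each list, with folds of 7.87 for overexpressed HoxC5 and 7.12 for Pbx4. At MXD3 the 5′ UTR and the intron beside the promoter had overexpressed HoxC5 folds of 4.04 and 6.16, and the strongest HoxC5 peak, with a fold of 7.66, was 5.32 kb upstream in an intron of LMAN2. The Pbx4 promoter peak of MXD3 had a fold of 2.58, and its strongest peak, with a fold of 10.4, lay in an intron shared with RAB24, where overexpressed HoxC5 had a fold of 6.99. MXD4 had the promoter as its strongest Pbx4 site, with a fold of 8.58 at 94 bp upstream of the TSS and an overexpressed HoxC5 fold of 6.43 beside it. Its strongest HoxC5 peak, with a fold of 9.72, was in an intron of POLN 44.2 kb away. All 3 of its HoxC5 peaks had a Pbx4 partner, as did 67.7% of the whole HoxC5 list.

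MXI1, another MAX-binding repressor, had its strongest overexpressed HoxC5 peak at the promoter, 46 bp upstream, with a fold of 8.04 and no Pbx4 partner. Pbx4 had summits 929 bp upstream and 861 bp downstream of other MXI1 TSSs, with folds of 3.76 and 4.56, and its strongest peak, with a fold of 13.4, was 35.2 kb upstream and held the E-box. MXI1 has 37 annotated TSSs, which gives it a promoter area of 12.3 kb. MNT had 6 overexpressed HoxC5 summits within 1 kb of a TSS, with folds of 5.67, 6.35, 6.22, 3.71, 5.95 and 3.71, and 1 Pbx4 summit with a fold of 4.31. The HoxC5 summits with folds of 5.67, 6.35 and 6.22 lay 7.78, 7.20 and 1.19 kb past the nearest coding TSS. The Pbx4 summit lay 1.30 kb past it. The MNT promoter area, 10.7 kb, was also above the median. The strongest overexpressed HoxC5 peak of the MNT window was in the SGSM2 intron (chr17:2262525-2263175), with a fold of 10.3, and Pbx4 had a fold of 9.02 over it. The strongest Pbx4 peak, with a fold of 12.0, was in another SGSM2 intron without a HoxC5 peak.

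MGA, with the longest window of the 10 (242 kb), had 4 overexpressed HoxC5 summits and no Pbx4 summit within 1 kb of its TSSs, with HoxC5 folds of 5.88, 7.01, 3.79 and 4.77. Its promoter area of 16.9 kb, from 15 annotated TSSs, was the largest of the 10. Its strongest peaks in both lists lay over each other 28.2 kb upstream, nearest to TYRO3, with folds of 9.92 for overexpressed HoxC5 and 14.8 for Pbx4. The MGA site printed above, where a coding exon runs from 41991061 to 41991139 and the summits lie in the intron after it, had the same rounded Pbx4 fold of 14.8, with its AP-1 word at the end of that exon (41991132 to 41991138), and an overexpressed HoxC5 fold of 7.59. The endogenous replicate 1 peak counted to MGA was in an intron of the neighbour MAPKBP1 (chr15:42083183-42083463), with a fold of 3.58 and a −log10 q of 1.86, at 95.0% of the way down the list, and overexpressed HoxC5 and Pbx4 had folds of 3.97 and 6.71 there.

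When overlapping peaks of all lists, endogenous ones included, were joined into sites, the 10 genes held 138 sites. Of the overexpressed lists, 44 sites had a peak in both, 33 in HoxC5 only and 61 in Pbx4 only. All 3 endogenous sites were among the 44. From the HoxC5 side, 49 of 82 member peaks met a Pbx4 peak (59.8%, with an exact 95% interval after Clopper and Pearson of 48.3 to 70.4%), against 67.7% of the whole list. From the Pbx4 side, 45 of 106 (42.5%, interval 32.9 to 52.4%) overlapped an overexpressed HoxC5 peak, against 28.5% of the list. The intervals cover counting error only, and peaks of a window share their library and locus. The definition of overlap moved these shares: with summits within 100 bp of each other they were 39.0% and 30.2%. The whole-list shares were not computed by that rule, so the 67.7% and 28.5% are not their background.

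Overlap near and far from promoters ran in opposite directions for the 2 proteins, at the members as in the whole lists. Within 1 kb of a TSS of any protein-coding gene, 12 of 35 overexpressed HoxC5 member peaks overlapped Pbx4 (34.3%, list 40.6%), and farther away 37 of 47 did (78.7%, list 75.8%). For Pbx4 the order was the other way round, with 12 of 19 near a TSS (63.2%, list 45.9%) and 33 of 87 farther away (37.9%, list 26.9%). The intervals of the near and far shares were apart for HoxC5 and overlapped for Pbx4, as the plot of shares by distance from a TSS shows.

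The AP-1 word was within 50 bp of the summit of 13 of the 82 overexpressed HoxC5 member peaks (15.9%, interval 8.72 to 25.6%, list 20.5%) and of 19 of the 106 Pbx4 member peaks (17.9%, interval 11.2 to 26.6%, list 18.5%). None of these lay within 1 kb of a TSS, where 0 of 35 and 0 of 19 summits held the word, which allows up to 10.0% and 17.6% and compares with 6.61% and 12.1% in the lists. Farther away the shares were 27.7% and 21.8%, against 24.7% and 19.1%. The E-box CACGTG, the word that MYC and MAX themselves bind, was near 5 of 82 overexpressed HoxC5 summits (6.10%, interval 2.01 to 13.7%, list 1.75%) and 7 of 106 Pbx4 summits (6.60%, interval 2.70 to 13.1%, list 1.08%). Within 1 kb of a TSS of any protein-coding gene it was near 4 of 35 HoxC5 summits (11.4%, list 3.22%), and farther away near 1 of 47 (2.13%, list 1.31%). For Pbx4 these were 2 of 19 (10.5%, list 1.95%) and 5 of 87 (5.75%, list 1.00%). The E-box peaks lay in the windows of MAX, MGA, MXI1, MNT, MXD3 and MYC, among them the MAX 5′ UTR and the MGA intron 1.57 kb past a TSS, in both lists. Some were nearer to a neighbour. The MXD3 summit was 5 bp from a RAB24 TSS, and the HoxC5 summit of MXI1 94 bp from a TSS of its neighbour SMNDC1. A Pbx4 summit 35.2 kb upstream of MGA was nearest to TYRO3. The E-box is a property of the DNA at these summits, and a match says nothing of which protein was bound there. The composite word TGATTGAT was near 1 member summit in each list, at MYCL in both, and TGATTAAT near 1 HoxC5 summit, at the SGSM2 intron, while 0.796% and 0.807% of overexpressed HoxC5 summits held them in the list and 0.469% of Pbx4 summits held TGATTGAT. The Meis word TGACAG was near 7.32% of the HoxC5 and 13.2% of the Pbx4 member summits (lists 7.88% and 10.4%), and TAATGA near 3.66% and 10.4% (lists 8.41% and 7.61%).

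**Figure D2:**
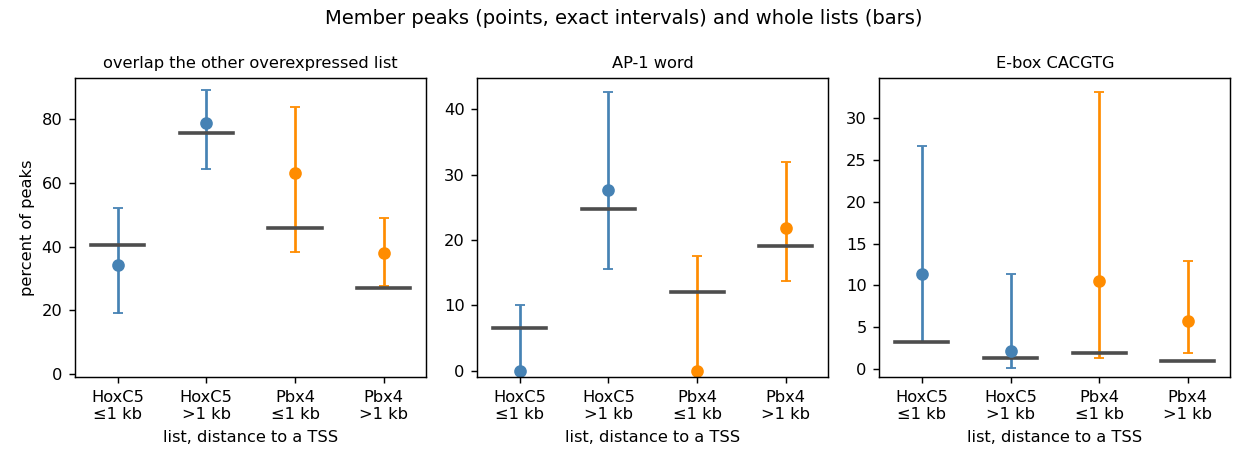
Percent of member peaks (points, with 95% Clopper-Pearson intervals) that overlap the other overexpressed list, hold the AP-1 word or hold the E-box CACGTG within 50 bp of the summit, for overexpressed HoxC5 (blue) and Pbx4 (orange), within 1 kb of a protein-coding TSS or farther away. Grey bars are the shares of the whole list; the AP-1 points near a TSS are at 0, and HoxC5 overlap rises from 34.3% near a TSS to 78.7% away from it.

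The region of chromosome 8q24 around MYC is known as a gene-poor stretch with distal MYC enhancers and the non-coding gene PVT1. Within 1 Mb of the MYC TSS there were 13 replicate 1 peaks, 2 replicate 2 peaks, 133 overexpressed HoxC5 peaks and 322 Pbx4 peaks. Over all protein-coding genes the medians by the same rule were 2, 0, 60 and 120, and 98.5%, 97.3%, 97.6% and 99.9% of genes had fewer than MYC. The density was 66.5 overexpressed HoxC5 peaks per Mb, against 23.8 over chromosome 8 and 21.7 over the genome. For Pbx4 it was 161 per Mb, against 59.0 and 49.6, and for replicate 1 it was 6.50, against 0.998 and 0.816. With peaks of a fold of at least 5 alone, the counts were 5, 1, 88 and 213, against medians of 1, 0, 43 and 86.

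**Figure D3:**
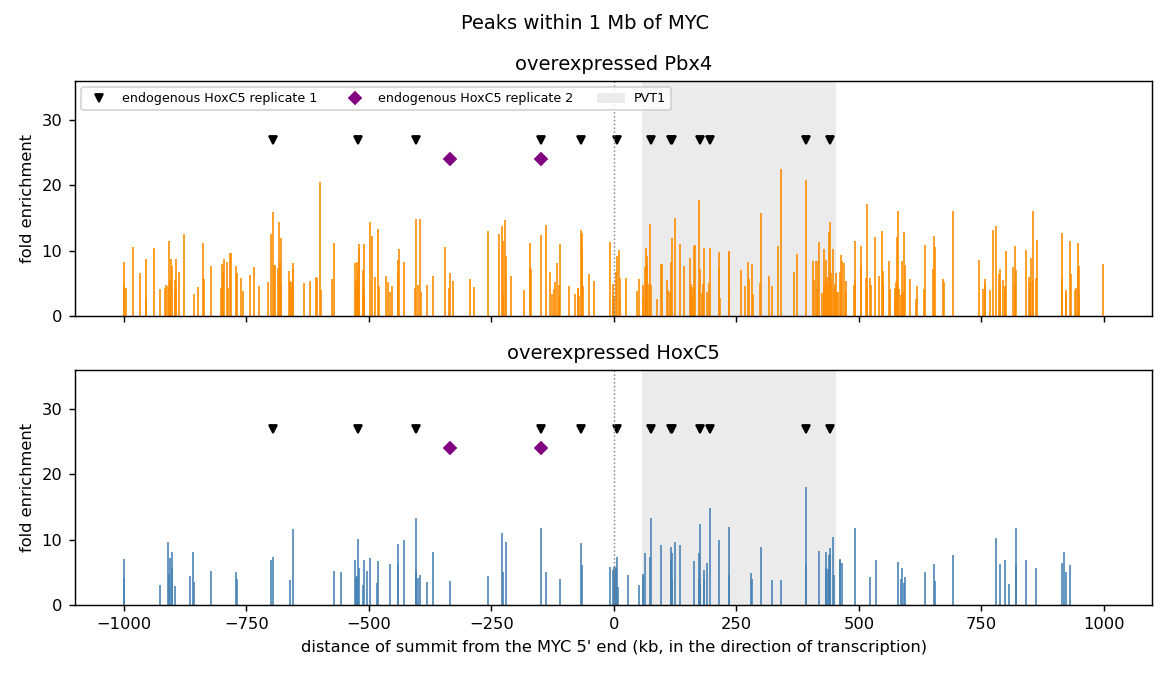
Fold enrichment of every overexpressed Pbx4 peak (upper panel) and overexpressed HoxC5 peak (lower panel) within 1 Mb of MYC, by distance in kb from the MYC 5′ end. Triangles mark the 13 endogenous replicate 1 peaks and diamonds the 2 replicate 2 peaks, drawn above the lines at arbitrary height; the shaded stretch is PVT1, which holds 7 of the 13 triangles and the highest line of each panel.

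Every one of the 13 replicate 1 peaks around MYC overlapped a peak of both overexpressed lists, as 61.7% of all replicate 1 peaks did. Their folds ran from 3.77 to 5.73. In that region 113 of the 133 overexpressed HoxC5 peaks (85.0%, list 67.7%) overlapped Pbx4, and 104 of the 322 Pbx4 peaks (32.3%, list 28.5%) overlapped HoxC5. PVT1 (chr8:128806772-129199347, 393 kb) held 7 of the 13 replicate 1 peaks, 40 overexpressed HoxC5 peaks and 79 Pbx4 peaks. That was 10.2 and 20.1 per 100 kb for the overexpressed proteins. In like units this was denser than the whole region, PVT1 included, which had 66.5 and 161 per Mb. The PVT1 peaks of replicate 1 lay 72.6, 114, 116, 174, 194, 390 and 439 kb downstream of the nearest coding MYC TSS, with folds of 5.01, 3.92, 4.87, 3.89, 5.15, 4.77 and 4.34. The AP-1 word was near the summits at 114 and 439 kb, and TAATGA near that at 390 kb.

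The endogenous site found in both replicates was 149 kb upstream of MYC, in an intron of a non-coding gene (ENSG00000286266). Replicate 1 had it at chr8:128598442-128598685, with a fold of 5.73 and a −log10 q of 18.3 (3.64% of the way down the list), and replicate 2 at chr8:128598492-128598658, with a fold of 7.51 and a −log10 q of 13.4 (12.9% of the way down). TAATGA was near both summits. The other replicate 2 peak, 334 kb upstream in an intron of CASC8, had a fold of 4.04 and overlapped Pbx4 only. Over the whole replicate 2 list, 79.4% of peaks overlapped a replicate 1 peak. The remaining replicate 1 peaks upstream were 697, 522, 405 and 66.8 kb from the TSS, with folds of 5.19, 3.77, 5.46 and 3.99. The highest overexpressed HoxC5 folds of the region were 18.0 at 390 kb downstream and 14.9 at 194 kb downstream, both in PVT1 introns with an endogenous replicate 1 peak, and 13.4 at 403 kb upstream with the AP-1 word. For Pbx4 they were 22.5 at 339 kb downstream and 20.9 at 390 kb downstream, both in PVT1 introns, and 20.5 at 600 kb upstream, in introns of CASC19 and PCAT1, where no overexpressed HoxC5 peak lay and both AP-1 and TAATGA were present. The PVT1 intron site at 390 kb was thus the strongest HoxC5 site of the region, the second strongest Pbx4 site, and an endogenous site of replicate 1.

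Of 27 other genes of the pathway, 8 had an endogenous peak in replicate 1, where 17.1% of all genes did, and 0 in replicate 2. Overexpressed HoxC5 had peaks at 26 of them and Pbx4 at 27, with promoter summits at 21 and 12, and the background is that given above for each list. The 8 were 5 of 12 MYC targets, 2 of 12 cofactors or regulators and 1 of 3 genes of the extended network. The 27 genes were chosen by name. The authors had already reported a HoxC5 site upstream of TERT from these data, so the count of 8 was in part known beforehand. ODC1, the enzyme that starts polyamine synthesis, had 3 endogenous peaks, at 4.10, 10.0 and 45.5 kb upstream, all overlapped by both overexpressed lists, and the middle one had a fold of 12.7 and a −log10 q of 22.1. E2F1, the cell cycle transcription factor, had 2, at 32.1 kb downstream and 45.8 kb upstream of its TSS, with folds of 6.89 and 6.05. The former overlapped Pbx4 only and the latter overexpressed HoxC5 only. NPM1, a nucleolar chaperone, had a summit 60 bp past its TSS with a fold of 4.33. TERT, the catalytic subunit of telomerase, had a peak 21.3 kb upstream with a fold of 4.27, and CDKN1A, a cyclin-dependent kinase inhibitor that MYC represses, one in the gene body with a fold of 3.99. Among cofactors, WDR5, a chromatin scaffold that binds MYC, had a peak 28.9 kb downstream of its TSS, outside the gene body, with a fold of 8.60. SIN3A, the corepressor recruited by MXD proteins, had a promoter summit with a fold of 6.44. MLXIPL, of the related MLX branch, had a promoter summit 47 bp from its TSS with a fold of 6.15. The SIN3A and MLXIPL peaks overlapped neither overexpressed list.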

How the data were processed

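Per the authors' methods and the labels, ChIP-Seq reads of sonicated chromatin were mapped to hg19 with BWA-MEM, reads of low mapping quality and duplicates (SAMtools) were removed, and MACS2 called peaks in each library with 0.05 as the q-value limit. The MACS2 version and control are not given in the sources used here. The deposited lists give for each peak the summit offset from its start (in bp), a fold enrichment (a ratio to local background), −log10 p-values and −log10 q-values, and a score made by the authors' peak caller. The highest q was 0.0398, 0.0499, 0.00997 and 0.0490 in replicates 1 and 2, overexpressed HoxC5 and overexpressed Pbx4, so the HoxC5 list was effectively stricter. The lists hold no read totals, so depth is unknown and the precision it gives cannot be stated. The 4 input libraries were not used here.

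Genes and TSSs were from GENCODE 44 lifted to GRCh37, whose chromosome lengths held every peak; 87 peaks on contigs of other names were left out. A summit in the gene body or within 50 kb of any annotated TSS assigned a peak to a gene, and a summit within 1 kb of any annotated TSS counted as a promoter peak. Distances in the text are to the nearest TSS of a coding transcript unless a peak was named for an annotated TSS. Overlap needed at least 1 bp. Words were sought within 50 bp of summits. Intervals are 95% Clopper-Pearson. No significance test was made, since each overexpressed condition was 1 library and replicate 2 had no peak at a member. The peaks named were all endogenous peaks, all promoter peaks, and the highest fold of each overexpressed list per gene, with the 3 highest folds per overexpressed list around MYC. Other sites named were chosen after their values were seen. The members and lists were chosen with earlier results of these data known. The alternatives tried were stricter filters on q and fold, other windows, TSS sets and overlap rules, lists of equal length, and each endogenous replicate left out. The counting was tested on simulated data, with 200 of 200 genes placed rightly. Computations used Python 3.11.15, numpy 2.4.6, pandas 2.3.3, scipy 1.17.1 and matplotlib 3.10.9.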

Additional observations from a re-analysis of the deposited data

How the results depend on the processing

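Of 106 alternative values, 73 stayed within 1.5 times of the reported count or within its interval and 33 moved. The 3 genes and 3 peaks of endogenous replicate 1 fell to 1 and 1 at a q-value of at most 0.001 and to 0 and 0 at a fold of at least 5, where its 1 promoter call was also 0, and the peaks rose to 6 with 100 kb around TSSs. With the replicates merged, leaving out each in turn gave 0 to 3 genes and 0 to 3 sites, the 0 being without replicate 1. Peaks at members with 10 kb and 100 kb around TSSs were 48 and 131 for overexpressed HoxC5 and 50 and 186 for Pbx4. The overexpressed lists cut to the length of replicate 1 left 0 genes and 0 peaks for HoxC5 and 1 gene and 1 peak for Pbx4. Pbx4 peaks were 67 at a fold of at least 5 and 45 with the list cut to the length of the HoxC5 list, and Pbx4 promoter peaks were at 2 genes at that fold. Around MYC, a fold of at least 5 left 5, 1, 88 and 213 peaks in the 4 lists, and 500 kb to either side left 80 for overexpressed HoxC5 and 163 for Pbx4. The share of HoxC5 peaks overlapping Pbx4 was 39.0% with summits within 100 bp, 32.9% with 50% reciprocal overlap and 34.1% with the Pbx4 list cut, and that of Pbx4 peaks overlapping HoxC5 was 30.2%, 25.5% and 55.6%. The AP-1 share within 25 bp of the summit was 8.54% for HoxC5 and 9.43% for Pbx4. These alternative overlap and AP-1 shares were computed for member peaks only, with no whole-list share beside them. No paired analysis was possible because no result comes from a test and only endogenous HoxC5 has 2 libraries. The input libraries were not used here, so the part of local read depth or copy number in the peak density of a region was not tested.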
